A study of Mus musculus with 12 samples.

Results

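Oxidative phosphorylation subunits are the nuclear-encoded proteins of the 4 respiratory chain complexes and of ATP synthase in the inner mitochondrial membrane. Transcripts of 37 such genes were measured in embryonic kidney of *Bdkrb2* null and wild-type (WT) mice, out of 12647 genes with a tested probe. They were taken by name and not by their measured values, though earlier results of these data were known at the time. Of them, 14 belong to complex I, 4 to complex II, 6 to complex III, 8 to complex IV and 5 to complex V. *Bdkrb2* encodes the bradykinin B2 receptor. Both genotypes were progeny of heterozygous parents on a C57BL/6 background, whose mothers ate food with 5% sodium, and kidneys were taken at embryonic day 14.5. The null allele is therefore the only labelled difference, and the salt feeding was shared by both groups. Each of 12 two-colour Agilent arrays held total RNA of a null and a WT sample, with null in Cy5 and WT in Cy3 (null/WT) in 3 replicates and the dyes exchanged (WT/null) in the other 3. Every replicate was run on 2 arrays, and replicates 1, 2 and 3 of both dye orders lay on slides 1, 2 and 3. The labels state neither how many embryos made up a sample nor whether both dye orders of a number shared RNA extracts, so the spread between replicates may be partly technical.

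Electrons from NADH enter the chain at complex I and those from succinate at complex II. Complex III passes them to cytochrome c, complex IV passes them on to oxygen, and complex V uses the proton gradient to make ATP. The developing kidney is known to depend more on glycolysis in its progenitors, while mature tubules are rich in mitochondria and rely on oxidative metabolism for salt transport.

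The promoters of these genes are known for sites of nuclear respiratory factors and for the lack of a TATA box, so the letters of those motifs were sought in RefSeq promoter windows of build GRCm38.p6. Each window runs from 250 bases before to 50 bases after a gene's start, and 27 of the 37 members were matched, with 29 windows. The NRF1 motif GCATGCGC was found on either strand in 4 of 29 windows (13.8%) against 2.71% of all 32851 windows. The ETS motif CCGGAAG, whose family includes the nuclear respiratory factor GABP, was found in 7 (24.1%) against 8.86% of all. The YY1 motif AAGATGGC was found in 3 (10.3%) against 2.75%, and the TATAAA box on the gene's strand in 1 (3.45%) against 8.32%. No match of one motif overlapped a match of another name among NRF1, ETS and YY1. The members' windows held a median of 19 CG dinucleotides, against 7 over all windows. These are matches of letters, and the arrays did not measure binding. The windows below are shown as examples from complexes IV and III with NRF1 or several ETS matches, with every NRF1, ETS or YY1 match on either strand in capitals (the longest run holds NRF1 matches on both strands), read 5′ to 3′ along the gene.
Cox6a1, chr5:115348909-115349208, minus strand: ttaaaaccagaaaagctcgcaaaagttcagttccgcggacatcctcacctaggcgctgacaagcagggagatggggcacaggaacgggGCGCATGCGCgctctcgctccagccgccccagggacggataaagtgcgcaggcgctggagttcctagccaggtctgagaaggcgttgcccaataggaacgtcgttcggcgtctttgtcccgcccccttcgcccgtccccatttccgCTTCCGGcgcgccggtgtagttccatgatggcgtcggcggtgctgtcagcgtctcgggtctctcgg
Uqcrc1, chr9:108936398-108936697, plus strand: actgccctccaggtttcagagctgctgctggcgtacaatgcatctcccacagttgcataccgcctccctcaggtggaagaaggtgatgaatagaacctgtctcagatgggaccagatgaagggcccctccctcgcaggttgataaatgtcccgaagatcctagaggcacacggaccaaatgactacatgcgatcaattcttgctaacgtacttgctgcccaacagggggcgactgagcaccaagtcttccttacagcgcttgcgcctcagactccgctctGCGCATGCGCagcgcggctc
Cox8a, chr19:7217567-7217866, minus strand: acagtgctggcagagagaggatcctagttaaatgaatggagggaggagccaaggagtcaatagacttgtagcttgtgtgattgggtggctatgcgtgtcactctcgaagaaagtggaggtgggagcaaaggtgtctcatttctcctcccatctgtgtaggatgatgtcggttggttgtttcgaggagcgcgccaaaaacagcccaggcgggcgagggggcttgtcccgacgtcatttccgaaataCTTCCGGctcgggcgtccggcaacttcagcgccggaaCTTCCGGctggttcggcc

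All 37 members were detected: each was well above background in all 24 channels, and 0 were saturated. Brightness depends on the probe as well as on the transcript, so the levels of different genes and complexes are not ranked. The mean log2 brightness of the members' probes ran from 7.87 (*Uqcrb*) to 17.03 (*Cox6a1*). Of the 37 probes, 33 lay among the brightest 25% of tested probes and 29 among the brightest 10%. *Uqcrb*, a small subunit of complex III, and *Ndufv2*, an iron-sulfur subunit of complex I, were the 2 below the median of all probes.

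The brightness of each complex was close in the genotypes. The median log2 level of the complex I members was 14.16 in null and 14.20 in WT kidneys, and that of complex II was 13.33 and 13.27. For complex III it was 14.47 and 14.52, for complex IV 15.75 and 15.76, and for complex V 15.34 and 15.35. In these sentences a level is the mean over the 6 replicates after normalization between arrays, and the rest of the text uses the log2 ratio of null over WT.

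Null and WT kidneys could not be told apart at any of the 37 subunits. In the limma fit across 22979 tested probes, 0 of 37 members had an adjusted p under 0.05 (smallest 0.707), where 9 probes in all, or 0.0392%, passed. With the replicate number as a block, which compares 3 dye-swap pairs, 0 members passed (smallest limma adjusted p 0.904), against 0.0174% of all probes. At an unadjusted p under 0.05 there were 2 members, *Ndufb5* and *Cyc1*, against 7.01% of all probes. In whole-kidney RNA, fewer cells of a type and less RNA per cell cannot be told apart.

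The intervals show how small a difference the arrays allow after loess within arrays. Fitted values ran from -0.11 to 0.073 on the log2 scale, and 35 of 37 lay within 0.1 of 0, a share of 94.6% against 82.8% of all probes and 87.5% of the brightest 10%. All 95% intervals of the members lay between -0.21 and 0.22, or 1.16-fold in either direction, and 35 of them included 0. With the block, the bounds were -0.24 and 0.23 and all 37 intervals included 0. The standard errors of the members ran from 0.037 to 0.074, with a median of 0.044. All these bounds hold for values after loess. Centred on the array median without loess, the members' median was 0.211 and the highest value 0.274 (*Cox4i1*). Relative to the median of all probes, these were 0.074 and 0.137. That reference does not match the members in brightness, since 29 of the 37 lie among the brightest 10% of tested probes. In this setting the brightest 10% had medians of 0.50, -0.15 and 0.29 on slides 1, 2 and 3, and the members 0.47, -0.18 and 0.32.

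**Figure D1:**
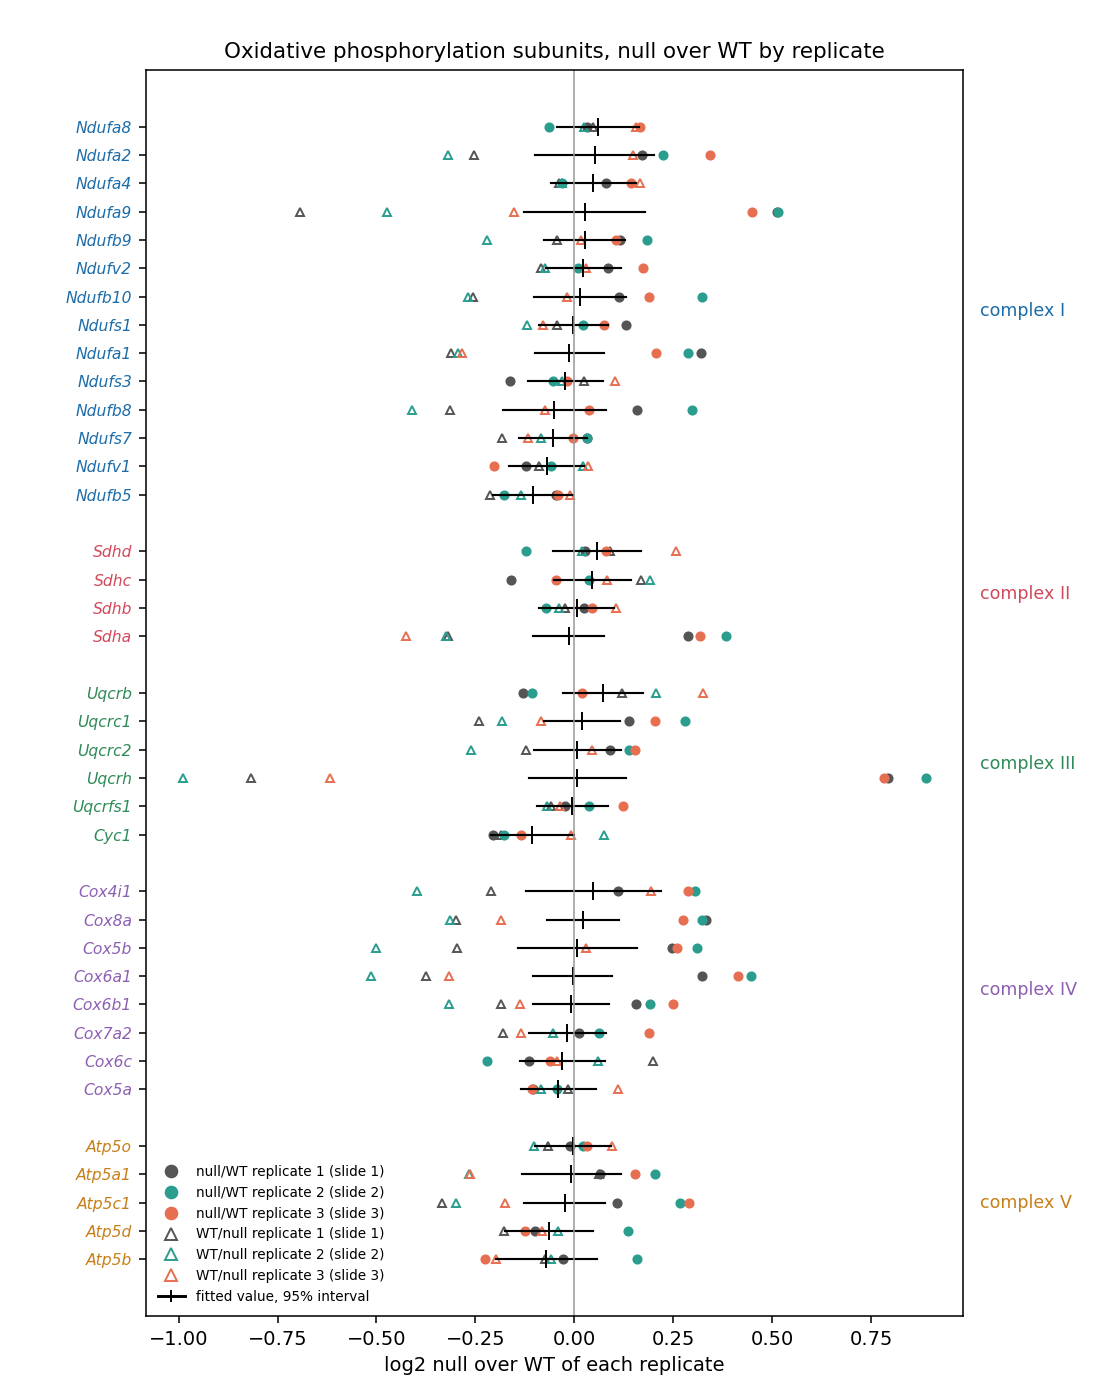
Log2 null over WT of the 37 members by complex, with 1 point for each of 6 replicates (filled circles null/WT, open triangles WT/null, coloured by slide) and a black bar for the fitted value with its 95% interval. The 35 intervals that include 0 cross the grey line, and *Uqcrh* shows the widest split between circles and triangles.

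Over all genes with a tested probe, 6078 of 12647 were higher and 6569 lower, with a median of -0.0031. Complex I had 7 members higher and 7 lower, with a median of 0.0053. *Ndufb5*, an accessory subunit of the membrane arm, stood at -0.21, -0.13 and -0.011 in WT/null replicates 1, 2 and 3 and at -0.047, -0.18 and -0.041 in null/WT replicates 1, 2 and 3. All 6 values, taken after loess, lay below 0, by little on slide 3. The fitted value was -0.10 ± 0.044 (SE, n = 6 replicates, limma adjusted p = 0.707). Centred on the array median without loess it was 0.093, or -0.044 relative to the median of all probes. *Ndufb5* was the 1 member with the same sign in all 6 replicates, where 2.92% of all probes had one sign throughout and 1.42% were lower throughout.

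*Ndufv1*, which encodes the subunit that binds NADH and FMN, stood at -0.090, 0.023 and 0.034 in WT/null and at -0.12, -0.058 and -0.20 in null/WT replicates. Signs were mixed in WT/null and negative in null/WT, and the fitted value was -0.069 ± 0.041. *Ndufa9*, an accessory subunit, had the widest range in the complex, from -0.69, -0.47 and -0.15 in WT/null to 0.51, 0.52 and 0.45 in null/WT. Its dye orders did not overlap and had opposite signs, which left a fitted value of 0.026 ± 0.066. The core subunits *Ndufs1*, *Ndufs3* and *Ndufs7*, which belong to the peripheral arm that carries the iron-sulfur clusters, had fitted values of -0.0026, -0.023 and -0.054. *Ndufa8* had the highest value of the complex at 0.061 ± 0.045. *Ndufa4*, listed here by its symbol with complex I, is now assigned to complex IV and stood at 0.048 ± 0.047.

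Complex II, the succinate dehydrogenase that also serves the citric acid cycle, had 3 members higher and 1 lower, with a median of 0.026. *Sdhd*, a membrane anchor, stood at 0.091, 0.021 and 0.26 in WT/null and at 0.027, -0.12 and 0.079 in null/WT replicates. It was above 0 in 5 of 6 replicates, and the fitted value was 0.059 ± 0.048. *Sdhc*, the other anchor, stood at 0.17, 0.19 and 0.084 in WT/null and at -0.16, 0.036 and -0.047 in null/WT replicates. Its dye orders did not overlap, with a fitted value of 0.045 ± 0.043. *Sdha*, the flavoprotein that oxidises succinate, stood at -0.32, -0.32 and -0.43 in WT/null and at 0.29, 0.38 and 0.32 in null/WT replicates, and the 2 orders cancelled to -0.014 ± 0.039. *Sdhb*, the iron-sulfur subunit, was at 0.0063 ± 0.041.

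Complex III had 4 members higher and 2 lower, with a median of 0.0073. *Cyc1*, the cytochrome c1 gene, stood at -0.18, 0.075 and -0.0087 in WT/null and at -0.21, -0.18 and -0.14 in null/WT replicates. It was below 0 in 5 of 6 replicates, and the fitted value, the lowest of the members, was -0.11 ± 0.045 (limma adjusted p = 0.709). *Uqcrb*, a small subunit near the quinone site, had the highest value of the members, 0.073 ± 0.044 (limma adjusted p = 0.724). Its replicates were 0.12, 0.21 and 0.33 in WT/null against -0.13, -0.11 and 0.018 in null/WT, with no overlap between the dye orders. *Uqcrh*, the hinge protein that joins cytochrome c1, stood at -0.82, -0.99 and -0.62 in WT/null and at 0.79, 0.89 and 0.78 in null/WT replicates. That is the widest range of any member, and the fitted value was 0.0071 ± 0.053. The core proteins *Uqcrc1* and *Uqcrc2* and the Rieske iron-sulfur protein *Uqcrfs1* were at 0.019, 0.0076 and -0.0049.

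Complex IV, cytochrome c oxidase, had 3 members higher and 5 lower, with a median of -0.0058. *Cox5a* stood at -0.015, -0.083 and 0.11 in WT/null and at -0.10, -0.043 and -0.11 in null/WT replicates. It was below 0 in 5 of 6 replicates, with a fitted value of -0.040 ± 0.042. *Cox4i1*, the common isoform of a regulatory subunit, stood at -0.21, -0.40 and 0.19 in WT/null and at 0.11, 0.30 and 0.29 in null/WT replicates. The WT/null replicate of slide 3 stood apart in sign from the WT/null replicates of slides 1 and 2, and the fitted value, 0.048 ± 0.074, had the largest standard error among the members. *Cox6a1*, the isoform of non-muscle tissue, stood at -0.37, -0.51 and -0.32 in WT/null and at 0.32, 0.45 and 0.41 in null/WT replicates, with a fitted value of -0.0038 ± 0.043. The other members, *Cox5b*, *Cox6b1*, *Cox6c*, *Cox7a2* and *Cox8a*, had fitted values between -0.030 and 0.022.

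Complex V was the only one of the 5 whose members all had a fitted value below 0: 5 of 5, with a median of -0.024, and none passed. Of all genes with a tested probe, 6569 of 12647 had a fitted value below 0, and the count of complex V was not tested against that share. *Atp5b*, the catalytic beta subunit of the F1 head, stood at -0.073, -0.059 and -0.20 in WT/null and at -0.027, 0.16 and -0.23 in null/WT replicates. It was below 0 in 5 of 6 replicates, with a fitted value of -0.071 ± 0.055 (limma adjusted p = 0.734). *Atp5d*, the delta subunit of the central stalk, stood at -0.18, -0.040 and -0.082 in WT/null and at -0.098, 0.14 and -0.12 in null/WT replicates, with a fitted value of -0.064 ± 0.048. *Atp5c1*, the gamma subunit that turns within the head, stood at -0.33, -0.30 and -0.17 in WT/null and at 0.11, 0.27 and 0.29 in null/WT replicates, with a fitted value of -0.024 ± 0.045. *Atp5a1*, the alpha subunit, and *Atp5o*, which links the head to the side stalk, lay at -0.0074 ± 0.054 and -0.0041 ± 0.042. The median of complex V was 0.0021 without null/WT replicate 1, -0.048 without WT/null replicate 3, -0.049 with scale normalization and -0.050 from the scanner's processed signals, where the median of all probes also moved, from -0.0098 to -0.038.

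Several members had a second probe, and these did not always give the same sign. Of 8 members with more than 1 probe, 7 had more than 1 tested probe, and 3 of those had probes of opposite sign. *Ndufa1* gave -0.012 and 0.0024, *Uqcrc1* gave 0.019 and -0.048, and *Cox7a2* gave -0.017 and 0.0044, each within 1 standard error of 0. The 3 probes of *Atp5b* gave -0.071, -0.0015 and -0.12, the last from a probe of mean log2 brightness 6.51. The second probe of *Atp5a1* gave -0.062 ± 0.038 and that of *Uqcrh* 0.083 ± 0.066. On slide 3 the pair of *Uqcrc1* probes stood at 0.061 and -0.20, and the 2 brighter *Atp5b* probes at -0.21 and 0.059.

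The largest differences among the members lay between the dye orders and not between the genotypes. The dye term of the fit, which is the log2 excess of Cy5 over Cy3 left after loess, passed an adjusted p of 0.05 for 12 of 37 members (32.4%), and all 12 were brighter in Cy5. Over all probes it passed for 13.5%, with 8.05% brighter in Cy5, and in the brightest 10% for 31.0%, with 17.1% brighter in Cy5. That set holds 29 of the 37 members, and neither the difference in share nor that in direction was tested. The largest dye terms were those of *Uqcrh* (0.81), *Ndufa9* (0.47), *Cox6a1* (0.40) and *Sdha* (0.34). The median dye term was 0.076 in complex I, -0.036 in complex II, 0.085 in complex III, 0.20 in complex IV and 0.040 in complex V.

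In single replicates the complexes moved with the dye order. The median of the complex IV members was -0.20, -0.32 and -0.089 in WT/null against 0.13, 0.25 and 0.25 in null/WT replicates 1, 2 and 3. That of complex II was 0.034, -0.0094 and 0.094 in WT/null against 0.025, -0.018 and 0.061 in null/WT replicates. The dye orders of complex IV thus did not overlap, while those of complex II did. Probes of one gene could carry different dye terms: *Sdha* had 0.34 and -0.012, and the 2 brighter probes of *Atp5b* had 0.040 and -0.34, while *Ndufa1* had 0.28 and 0.29 and *Uqcrh* 0.81 and 0.62. With no dye term in the fit, 0 members passed either (smallest limma adjusted p 0.984).

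**Figure D2:**
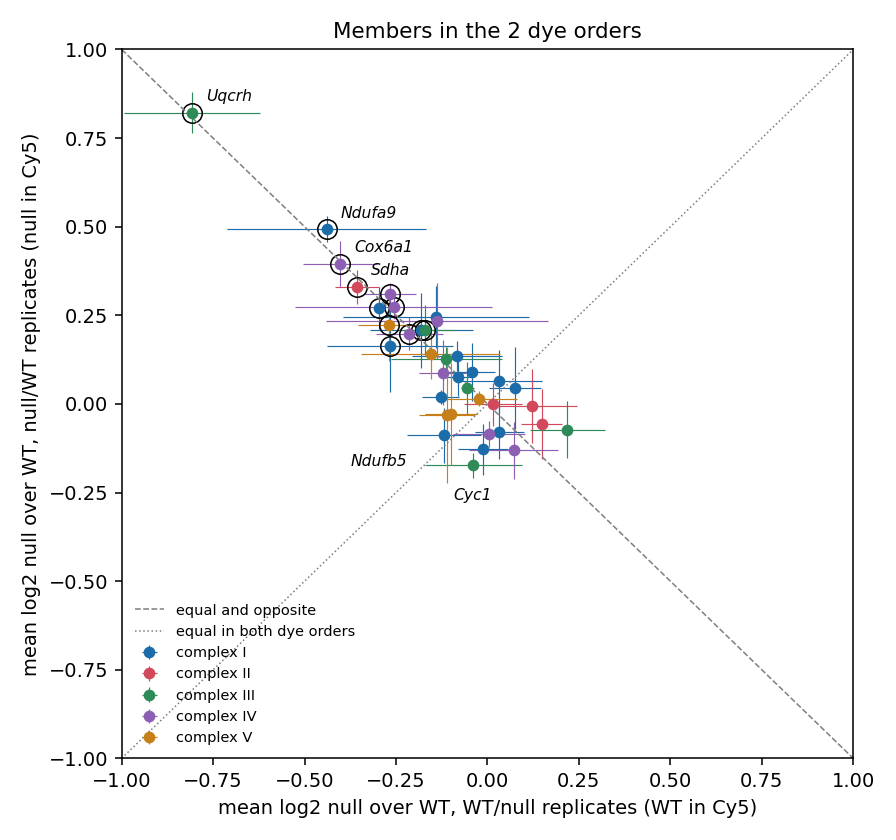
Mean log2 null over WT of each member over the 3 WT/null replicates (x axis, WT in Cy5) and over the 3 null/WT replicates (y axis, null in Cy5), with bars for the SD over replicates, colours for complexes and black rings for the 12 members whose dye term passed. Ringed members such as *Uqcrh*, *Ndufa9*, *Cox6a1* and *Sdha* lie along the dashed line of equal and opposite values, while *Ndufb5* and *Cyc1* lie below it.

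Averaging both dye orders of a number gives 1 value per slide, in which the dye cancels. The median of the members was -0.026 on slide 1, -0.031 on slide 2 and 0.048 on slide 3, where the median over all genes was 0.0034, -0.0049 and -0.0032. In all, 31 of 37 members were higher on slide 3 than on slide 1, against 45.6% of all genes, 53.0% of the brightest 10% of probes and 31 of 36 other subunits of the same complexes. The number of the 37 members above 0 was 11 on slide 1, 10 on slide 2 and 25 on slide 3. Of all genes, 51.9%, 47.2% and 49.2% were above 0 on slides 1, 2 and 3. With 1 pair of dye orders on each slide, the difference between slides has no replicate of its own and was not tested.

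The values on slide 3 were uneven. *Ndufa2*, an accessory complex I subunit, stood at -0.042, -0.048 and 0.25 on slides 1, 2 and 3, *Cox4i1* at -0.050, -0.047 and 0.24, and *Uqcrb* at -0.0042, 0.049 and 0.17. The slide 3 median was 0.052 for complex I, 0.046 for complex II, 0.072 for complex III and 0.046 for complex IV, but -0.056 for complex V, whose *Atp5b* stood at -0.21 and *Atp5d* at -0.10 there. Some other scalings also moved the slide values of all probes. With the scanner's processed signals centred on the median the members stood at -0.024, -0.073 and -0.016 and all probes at -0.00081, -0.052 and -0.058, and 20 of 37 (54.1%) were higher on slide 3 than on slide 1, against 37.01% of all probes and 38.7% of the brightest 10%. Centred on the array median without loess the members stood at 0.47, -0.18 and 0.32 while all probes stood at 0.33, -0.073 and 0.18. The brightest 10% stood at 0.50, -0.15 and 0.29 in that setting. There 5 of 37 (13.5%) were higher on slide 3 than on slide 1, against 28.3% of all probes and 5.57% of the brightest 10%. In the authors' table, 26 of 37 (70.3%) were, against 42.9% of all probes and 49.4% of the brightest 10%.

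**Figure D3:**
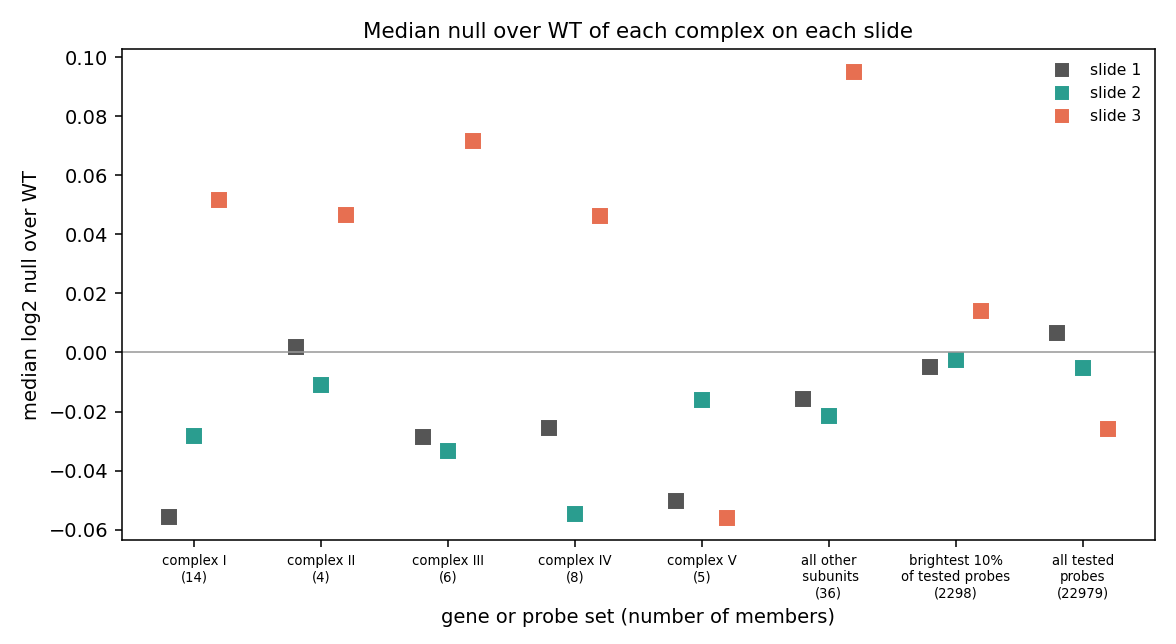
Median log2 null over WT on slides 1, 2 and 3 (grey, green and orange squares, each the mean of both dye orders) for the members of complexes I to V, the 36 other subunits tested, the brightest 10% of probes and all 22979 tested probes. Complexes I to IV have their highest median on slide 3, between 0.046 and 0.072, and complex V stands at -0.056 there.

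Markers of several other cell types also differed on slide 3, and their part in the members' values was not tested. Skeletal muscle markers had medians of 0.14, 0.41 and 1.12 on slides 1, 2 and 3, with 9 of 9 tested genes above 0 on slide 3. Summed linear brightness is given as the range over the 2 dye orders of a slide, which may share RNA extracts. For muscle on slide 3 it ran from 5099 to 6107 in null and from 1905 to 1967 in WT. On slide 1 the ranges were 1936 to 2070 and 1923 to 1942. Of 10 muscle markers, *Ckm* was well above background in 1 of 24 channels. *Aqp1*, a proximal tubule marker, was in 0 of 24. Proximal tubule markers had medians of -0.038, 0.056 and 0.77, with 11 of 11 tested above 0 on slide 3. Their sums there were 13086 to 14092 in null and 7510 to 7529 in WT. On slide 2 the sums were 15300 to 15396 in null and 12925 to 13815 in WT, and on slide 1 5978 to 6191 and 6156 to 6192. The WT sums thus differed between slides as well. Markers of loop and distal tubule had medians of 0.033, 0.082 and 0.88, with 6 of 7 above 0 on slide 3. Their sums were 22284 to 24762 in null against 21582 to 22027 in WT on slide 3, and 23242 to 24760 against 22845 to 24299 on slide 2. Nephron progenitor markers had medians of -0.0013, -0.045 and -0.21, with 0 of 8 above 0 on slide 3. Their sums there were 32380 to 34667 in null against 38370 to 39581 in WT. On slide 1 they were 33152 to 34221 against 32784 to 34767, and on slide 2 29063 to 30481 against 31993 to 33366. Erythroid markers had medians of -0.21, -0.043 and 0.15, with sums on slide 3 of 97921 to 133090 in null against 68164 to 79799 in WT. On slide 2 they were 69357 to 132870 against 82398 to 111630, and the slide 3 null range overlapped both.

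The tissue was kidney by its defining markers: of 8, 6 of the 7 tested were well above background in all 24 channels, *Pax2* was in 23, and *Ret* was in 1. The only *Bdkrb2* probe rose well above background in 1 WT channel and in 0 null channels of 12 each, and cannot check the labels. The share of spots well above background was 41.2% to 59.0% in Cy3 and 51.1% to 60.0% in Cy5, and 1 array of WT/null replicate 3, the first, had the widest spread of log2 ratios (SD 0.37, against 0.13 to 0.24 elsewhere). Without that array the slide 3 median of the members was 0.057 and that of complex V -0.10. *Ndufa1*, the 1 member on the X chromosome, stood at -0.012. On slides 2 and 3 *Xist* exceeded background clearly in all 8 null channels but 0 of 8 WT ones, and on slide 1 in 4 of 4 of both, so sex and genotype cannot be told apart on slides 2 and 3. No member lies on chromosome 12, which carries *Bdkrb2*.

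The rest of the pathway was also without a call. The counts below stand beside 6078 of 12647 genes higher and 6569 lower over all genes, and no list was tested against that share. Of 36 other subunits tested, 25 were higher and 11 lower, with a median of 0.017 against -0.0038 for the members, and 0 passed. By complex, the higher ones were 14 of 22 in complex I, 2 of 3 in complex III, 1 of 1 in complex IV and 8 of 10 in complex V. The 2 lower ones in complex V were *Atp5k* (-0.086 ± 0.057) and *Atp5g3* (-0.022 ± 0.048), and the difference from the 5 members was not tested. *Ndufc2* and *Ndufa6*, accessory subunits of complex I, had values of 0.12 ± 0.045 and 0.11 ± 0.049, and *Uqcr10* of complex III had -0.10 ± 0.042. *Cox7b*, the 1 other complex IV subunit tested, was at 0.058 ± 0.065. *Cycs*, which encodes the cytochrome c that carries electrons from complex III to IV, was at -0.040 ± 0.044. For the 13 protein genes of the mitochondrial genome 0 probes were matched, so the subunits made inside mitochondria are not analysed here.

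Of the 3 tissue-specific paralogs tested, all 3 had positive values. *Cox6a2*, the heart and muscle counterpart of *Cox6a1*, stood at -0.071, 0.064 and 0.80 in WT/null and at 0.041, 0.099 and 1.22 in null/WT replicates, so both replicates of slide 3 lay far above the rest. Its fitted value was 0.36 ± 0.17 (limma adjusted p = 0.710), while *Cox6a1* on slide 3 was at 0.048. *Cox7a1*, the muscle counterpart of *Cox7a2*, was at -0.037, -0.086 and 0.24 on slides 1, 2 and 3.

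Of 34 assembly factors tested, 15 were higher and 19 lower (median -0.013). *Timmdc1*, which helps to assemble the membrane arm of complex I, stood at -0.59, -0.98 and -0.43 in WT/null and at -0.68, -1.03 and -0.20 in null/WT replicates. It was lower in 6 of 6 replicates, smallest on slide 3, with a fitted value of -0.65 ± 0.11 (limma adjusted p = 0.201, and 0.904 with the replicate block). Without slide 3 it was -0.82 and passed (limma adjusted p = 0.0216), and without slide 1 or slide 2 it did not (0.622 and 0.519). These fits had no replicate block, so both dye orders of a slide counted as independent. In the fit without slide 3, 62 of all probes passed, against 9 in the main fit. The 14 complex I members had fitted values between -0.10 and 0.061, so none approached the size of that difference. *Sdhaf1*, an assembly factor of complex II, was at -0.12 ± 0.039, with 4 of 6 replicates below 0.

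Regulators of mitochondrial biogenesis were split, with 6 of 14 higher (median -0.0092) and 0 called. *Ppargc1a*, which encodes the coactivator PGC-1 alpha, stood at 0.25, 0.050 and 0.63 in WT/null and at -0.056, 0.042 and 0.16 in null/WT replicates, with a fitted value of 0.18 ± 0.073 (limma adjusted p = 0.700). It was above 0 in 5 of 6 replicates and highest on slide 3. The related coactivator gene *Pprc1* was at -0.11 ± 0.044, below 0 in 5 of 6. The citric acid cycle and its entry enzyme complex had 7 of 15 higher (median -0.0046), with *Pdhb*, of pyruvate dehydrogenase, at -0.071 ± 0.039 and *Ogdh*, of 2-oxoglutarate dehydrogenase, at -0.085 ± 0.050.

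**Figure D4:**
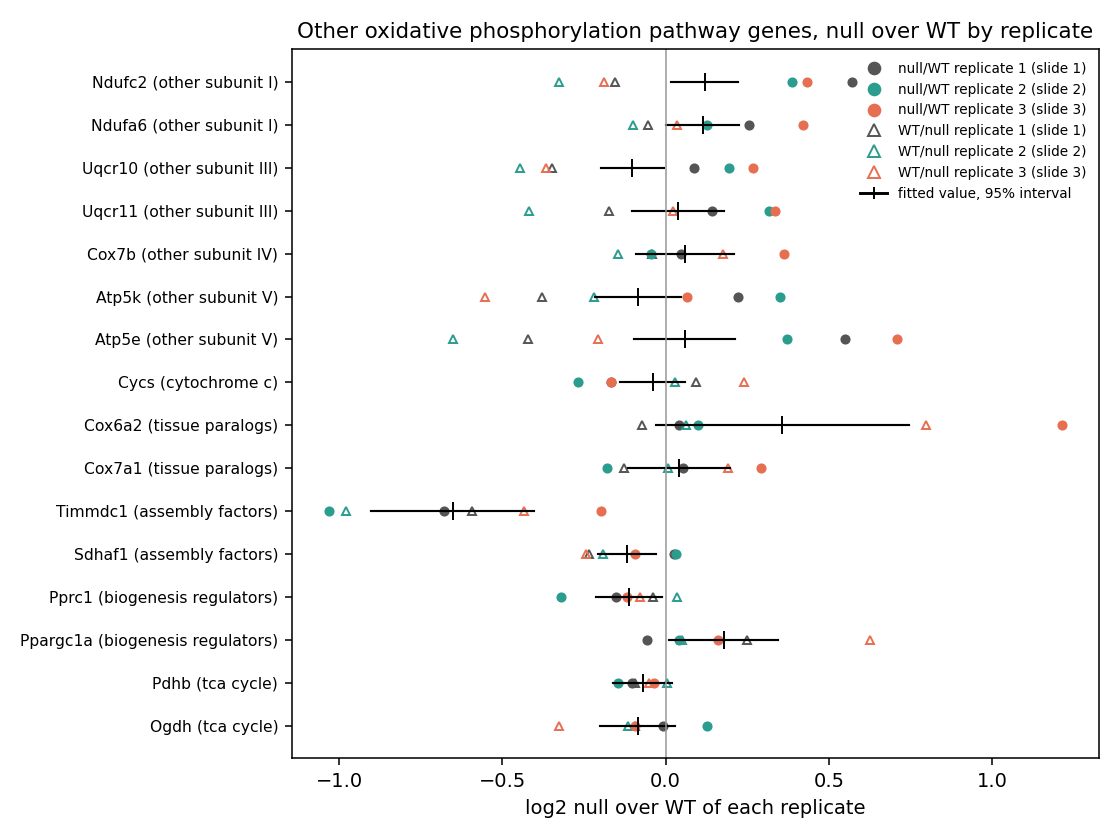
Log2 null over WT of other pathway genes, up to 2 from each list with the smallest unadjusted p, with 1 point per replicate (filled circles null/WT, open triangles WT/null, coloured by slide) and the fitted value with its 95% interval. *Timmdc1* lies below 0 in all 6 replicates, and both slide 3 points of *Cox6a2* lie at 0.80 and 1.22.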

How the data were processed

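Total RNA of *Bdkrb2* null and WT kidneys was measured on 12 two-colour arrays, grouped by the dye order and replicate number in the titles. Median spot and local background intensity was deposited for each dye without further normalization, per the file headers. The same files hold intensity values that Agilent Feature Extraction 10.5.1.1 had background-subtracted and dye-normalized, and their log10 ratio, per the file headers, while the submitters' processing notes name version 6.1. A series table holds log10 ratios that the authors deposited with the null sample as numerator: the matching scanner columns correlated with them at 0.998 or above. Column medians of that table ran from -0.0218 to 0.00645. How its blanks were chosen is unknown, and 0 of its columns lacked a sample.

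The intensities were corrected with normexp (offset 50) and loess within arrays, with control and outlier spots at weight 0. The design had named the spot intensity without its kind, and the median was used. Control and outlier spots (101 to 262 per array) were then left out, and spots of a probe and both arrays of a replicate were averaged. Probes well above background in null or WT on at least 6 of 12 arrays were tested: 22979 of 41174. Accessions were matched without version to a RefSeq gene table of GRCm38.p6, which named 17777 of the tested probes. A gene's value is its brightest tested probe: the 37 members have 46 probes, of which 45 were tested. The limma 3.58.1 fit (R 4.3.3) had a genotype and a dye term, with p Benjamini-Hochberg adjusted over all tested probes and a threshold of 0.05. Precision is limited by the number of arrays, which gave 6 replicates in 3 pairs. The fit was tested on simulated data in which all replicates were drawn independently. Same-numbered replicates were correlated in the real data, so that test does not cover their pairing.

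Same-numbered replicates share a slide, and after removal of each dye order's mean they correlated at 0.587, 0.517 and 0.413 over all probes, and at -0.043, -0.00020 and 0.11 over the members. From the values over all probes the number was taken to pair them, and results with it as a block are given beside those of the fit above, which has no block. The members and lists were chosen with earlier results of these data known. Every member is named or counted: each replicate is given for the 2 members of a complex with the smallest unadjusted p and the 1 with the largest range, and 2 genes with the smallest p are named from each other pathway list. *Xist*, the genes called for their dye term, members with probes of opposite sign and the slide 3 examples were named as well, the slide 3 examples after their values were seen. Alternatives changed the background correction, starting values, normalization, filter, block, dye term, probe choice and samples.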

Additional observations from a re-analysis of the deposited data

Results flagged for a closer look

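For 12 members the dye orders gave values of null over WT that differed, by the dye term of the limma fit at an adjusted p under 0.05, which is how far each dye order lies from the mean of both. On the log2 scale this term was 0.215 for *Ndufb8*, 0.466 for *Ndufa9*, 0.283 for *Ndufa1* and 0.194 for *Ndufb10* in complex I. It was 0.343 for *Sdha* in complex II, and 0.189 for *Uqcrc1* and 0.815 for *Uqcrh* in complex III. In complex IV it was 0.288 for *Cox8a*, 0.206 for *Cox6b1*, 0.265 for *Cox5b* and 0.398 for *Cox6a1*, and in complex V it was 0.246 for *Atp5c1*.

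Among the 16 other pathway genes named, 6 differed in the same way. The term was 0.344 for *Ndufc2*, 0.285 for *Uqcr10*, 0.227 for *Uqcr11*, 0.298 for *Atp5k* and 0.485 for *Atp5e*. *Cycs* went the other way, at -0.160, brighter in Cy3.

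In the 53 genes examined for a single replicate far from the other 5, Dixon's 95% critical value was passed by 0. The rate of about 1 in 20 flagged by chance holds for independent values from a single distribution. Here the values of the genes listed above split by dye order, and same-numbered replicates shared a slide. Either can hide a distant replicate, so the count of 0 cannot be compared with chance.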

How the results depend on the processing

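Across 22 alternative settings and 814 values of members, 0 passed the threshold in limma. The smallest adjusted p was 0.407, that of *Ndufb5* without slide 3 (-0.14). With the replicate block as without it, 0 members and 0 other pathway genes passed. Signs were not stable: 104 of the 814 values changed sign, in 33 of 37 members. With median centring within arrays set aside, which accounts for 20 of these, 84 changed sign in 23 members, and all values lay between -0.14 and 0.11. Settings that changed only the filter, the block or the dye term left the fitted values as in the main fit. No sign could change under them, yet their values are among the 814. Under median centring the median of all probes moved to 0.137, and the medians were 0.211 for the members, 0.201 for complex I, 0.233 for complex II, 0.219 for complex III, 0.204 for complex IV and 0.193 for complex V, all above that shift. The complex V median was -0.0503 from the scanner's processed signals and -0.0489 with scale normalization, and from -0.0477 to 0.00210 leaving out 1 replicate. The count over all probes was 9: it was 17 with scale normalization, 4 with the replicate block, 15 without array 1 of WT/null replicate 3, 3 without slide 2, 62 without slide 3 and 5 to 12 leaving out 1 replicate. *Timmdc1* passed without slide 3 in the limma fit without a block (-0.821, adjusted p = 0.0216), and its adjusted p over its other alternatives was 0.124 to 0.904. The causes were not tested. With 6 replicates, in 3 pairs, differences of the sizes inside the intervals given remain possible.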
